A study of Mus musculus with 6 samples.

Results

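A set of 10 genes that mark dendritic cell subsets was followed in lungs of mice labelled CCSP/TGFalpha (TGFalpha lungs) and of control mice labelled CCSP/-. The genes were chosen by name: Clec9a, Xcr1, Itgae and Batf3 for type 1 conventional dendritic cells (cDC1), Flt3 and Zbtb46 for conventional dendritic cells in general, Cd209a for type 2 and monocyte-derived cells, Ccr7 and Fscn1 for mature migratory cells, and Siglech for plasmacytoid cells. All 10 members were found among the 24061 gene rows of the series. Each group had 3 samples, and the mice of both groups were on doxycycline for 3 weeks. The promoter of CCSP, a protein secreted by club cells of the airway, is used to place transgenes in lung epithelium, and TGFalpha is a ligand of the epidermal growth factor receptor. The sources used here give neither the age of the mice, nor the species of the TGFalpha sequence, nor whether each sample was a separate animal. The p-values therefore rest on the spread among these 6 samples, which may be technical.

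Dendritic cells take up antigen in tissues and carry it to lymph nodes, where they present it to T cells. They arise from bone marrow precursors under the cytokine FLT3 ligand, and the lung holds cDC1, which lie close to epithelium and airways and express the integrin CD103 (Itgae), as well as type 2 cells (cDC2) and few plasmacytoid cells. On maturation, dendritic cells gain the chemokine receptor CCR7 and the actin-bundling protein fascin (Fscn1) and move along CCL19 and CCL21 towards lymphatic vessels.

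The libraries held between 21479006 and 24914322 counts, and the lung epithelial gene Sftpc stood at 3456 to 7540 CPM (counts scaled to the size of each library) in all 6. The mouse Tgfa row did not separate the groups, at 26.6, 25.9 and 29.9 CPM in TGFalpha lungs and 26.4, 22.6 and 28.4 CPM in control lungs. A TGFalpha transgene could therefore not be checked from it. Skeletal muscle transcripts were present in TGFalpha replicate 1 and control replicate 1, where 8 muscle genes summed to 2304 and 1375 CPM, against 52.1 to 69.5 CPM in the other 4 libraries. Values without both of these libraries are given below where they end the call of a member, a ligand or partner, or a further dendritic cell gene. They are not given for called genes in the lists of other cells. Of 16089 genes tested with edgeR, 8.33% passed an adjusted p of 0.05, with 5.03% higher and 3.29% lower in TGFalpha lungs. Dendritic cells are a small part of the lung, and in bulk RNA fewer cells of a type cannot be told apart from less RNA per cell.

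The members did not move as a block. Clec9a and Cd209a fell in TGFalpha lungs, Fscn1 rose, and the other 7 did not pass the test. The 3 genes that passed of 10 tested stand beside 8.33% of all genes tested. The median log2 fold change (TGFalpha over control) of the members was -0.51, against 0.01 over all genes tested. The members and the lists used below were chosen with earlier results of these data known. Such shares and medians are therefore descriptive and not independent tests. In CPM, the TGFalpha and control libraries did not overlap for 6 members, with Clec9a, Xcr1, Flt3, Ccr7 and Cd209a lower in TGFalpha lungs and Fscn1 higher, and such separation was found for 33.2% of all genes tested (17.7% higher and 15.5% lower). All 10 members passed the filter on low counts, and 9 had at least 43 counts in every library. Batf3 was the exception, with 6 to 46 counts.

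**Figure D1:**
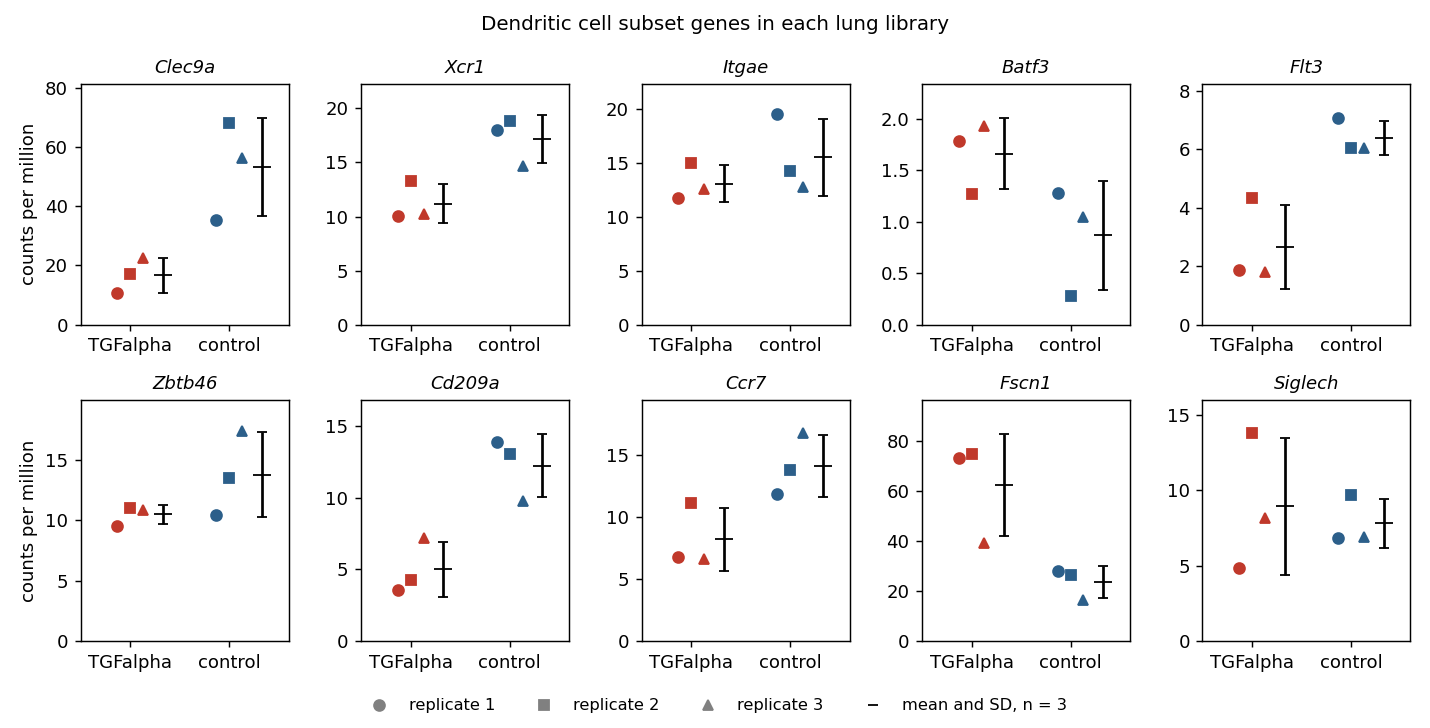
CPM of the 10 members in each library (circle, square and triangle for replicates 1, 2 and 3; bar and whiskers for mean and SD, n = 3), with TGFalpha lungs left of control lungs and each panel's axis starting at 0. Clec9a, Xcr1, Flt3, Cd209a and Ccr7 lay lower in all TGFalpha libraries than in any control library, Fscn1 lay higher, and the groups overlapped for Itgae, Batf3, Zbtb46 and Siglech.

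Clec9a gave the largest difference among the cDC1 genes. It encodes DNGR-1, a receptor by which cDC1 sense the exposed actin of dead cells, and it lies on chromosome 6 from 129408862 to 129424764 (GRCm38). Clec9a stood at 10.5, 17.1 and 22.4 CPM in TGFalpha lungs and at 35.2, 67.9 and 56.2 CPM in control lungs. The highest TGFalpha library was below the lowest control library. The mean was 16.7 ± 5.93 CPM in TGFalpha lungs and 53.1 ± 16.6 CPM in control lungs (SD, n = 3 each), and the log2 fold change was -1.67 ± 0.32 (SE; 95% interval -2.41 to -0.94; edgeR adjusted p = 0.0227). This corresponds to a level 3.19-fold lower in TGFalpha lungs. The call was lost without TGFalpha replicate 1 or 2 or control replicate 2 or 3 (adjusted p = 0.0633, 0.0662, 0.0898 and 0.1001) and held without the 2 muscle-bearing libraries (0.0159). GENCODE places 184 of the 3293 exon bases of Clec9a within exons of the neighbouring gene Clec1b on the same strand, and Clec1b had 38, 74 and 76 counts in TGFalpha lungs and 108, 125 and 118 in control lungs, while Clec9a had 248 to 534 counts in TGFalpha lungs and 878 to 1482 in control lungs.

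Xcr1, the receptor for the chemokine XCL1 that draws cDC1 to T and NK cells, differed less. It stood at 10.1, 13.2 and 10.2 CPM in TGFalpha lungs and at 18.0, 18.8 and 14.7 CPM in control lungs. These ranges did not overlap, but the log2 fold change of -0.62 ± 0.19 (95% interval -1.06 to -0.18) did not pass across all genes (edgeR adjusted p = 0.0861). The ratio of Clec9a to Xcr1 was 1.05, 1.29 and 2.19 in TGFalpha libraries and 1.96, 3.61 and 3.83 in control libraries. The ranges of this ratio overlapped, and the mean log2 ratio differed by -1.06 (exact permutation test, 2-sided, p = 0.2, where 3 against 3 libraries cannot go below 0.1). Xcl1 itself had at most 0.55 CPM in any library and was not tested.

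The other 2 cDC1 genes overlapped between groups. Itgae, the alpha chain of the integrin CD103, stood at 11.7, 14.9 and 12.6 CPM in TGFalpha lungs and at 19.5, 14.2 and 12.7 CPM in control lungs. Control replicate 1 alone lay above the rest, and the log2 fold change was -0.25 ± 0.21 (95% interval -0.73 to 0.24; edgeR adjusted p = 0.487). CD103 is also carried by T cells of epithelia, and the gene Haspin lies within the body of Itgae on the other strand. The partner chain Itgb7 had 20.5, 30.9 and 30.5 CPM in TGFalpha lungs and 29.9, 48.7 and 43.8 CPM in control lungs, and the CD103 ligand gene Cdh1 had 179, 169 and 244 CPM in TGFalpha lungs against 280, 287 and 276 CPM in control lungs, and neither passed (edgeR adjusted p = 0.158 and 0.105). Batf3, a transcription factor needed for cDC1, had the lowest group means of the members in CPM, with 1.79, 1.27 and 1.93 CPM in TGFalpha lungs and 1.28, 0.275 and 1.05 CPM in control lungs. The groups met at 1.27 and 1.28 CPM, and the interval of its log2 fold change ran from -0.43 to 2.29 (edgeR adjusted p = 0.351). Neither a rise nor a fall could therefore be shown from these 6 libraries.

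Batf3 works with JUN proteins, and its relative BATF can stand in for it in mouse cDC1. Jun, which encodes one such AP-1 subunit, fell, at 107, 116 and 120 CPM in TGFalpha lungs and 151, 213 and 197 CPM in control lungs (log2 fold change -0.71 ± 0.17, edgeR adjusted p = 0.040). Of the 6 fits with 1 library left out, the one without control replicate 1 kept the Jun call (adjusted p = 0.0258), and the others gave 0.0720 to 0.159, and without both muscle-bearing libraries it was 0.0581. Batf had 5.78, 4.48 and 4.82 CPM in TGFalpha lungs and 2.61, 1.56 and 2.42 CPM in control lungs. Every TGFalpha library held more Batf than any control library, with a log2 fold change of 1.19 ± 0.32 that did not pass (edgeR adjusted p = 0.0567). Junb, Jund and Batf2 overlapped between groups, with adjusted p of 0.525 or more. Bulk RNA does not show which cells the Jun and Batf transcripts came from, and the part of cDC1 in them was not tested.

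Flt3, the receptor tyrosine kinase for FLT3 ligand on dendritic cells and their precursors, had few counts. Its level was 1.87, 4.32 and 1.802 CPM in TGFalpha lungs and 7.07, 6.05 and 6.03 CPM in control lungs. All control libraries lay above TGFalpha replicate 2, which itself lay well above the other 2 TGFalpha libraries. The log2 fold change was -1.26 ± 0.39 (95% interval -2.15 to -0.37; edgeR adjusted p = 0.0831). Flt3 passed as lower by DESeq2 (adjusted p = 0.0216), by limma-voom (0.0486) and by edgeR without TGFalpha replicate 2 (0.0329). Flt3l, the gene of its ligand, fell, at 4.34, 9.38 and 5.53 CPM in TGFalpha lungs and 13.5, 16.1 and 14.0 CPM in control lungs. TGFalpha replicate 2 was again the highest of its group and below every control library, and the log2 fold change was -1.18 ± 0.30 (edgeR adjusted p = 0.0475). The Flt3l call held only without TGFalpha replicate 2 (adjusted p = 0.0265) among the 6 fits with 1 library left out, where the others gave 0.0661 to 0.155, and it was lost without both muscle-bearing libraries (0.118). GENCODE shares 856 of its 3878 exon bases with the overlapping gene model Gm45713.

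Zbtb46, a zinc finger transcription factor of conventional dendritic cells that endothelium also expresses, stood at 9.56, 11.02 and 10.9 CPM in TGFalpha lungs and at 10.4, 13.5 and 17.4 CPM in control lungs. The groups overlapped through control replicate 1, and the log2 fold change was -0.39 ± 0.23 (95% interval -0.91 to 0.12; edgeR adjusted p = 0.301). Without control replicate 3 it was -0.19. All 7 genes of an endothelial list had a negative log2 fold change, of which 3 passed and 4 did not. Their transcripts summed to 1009, 1031 and 1812 CPM in TGFalpha lungs and 1896, 3497 and 3237 CPM in control lungs. The part of endothelium in the Zbtb46 values was not tested.

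**Figure D2:**
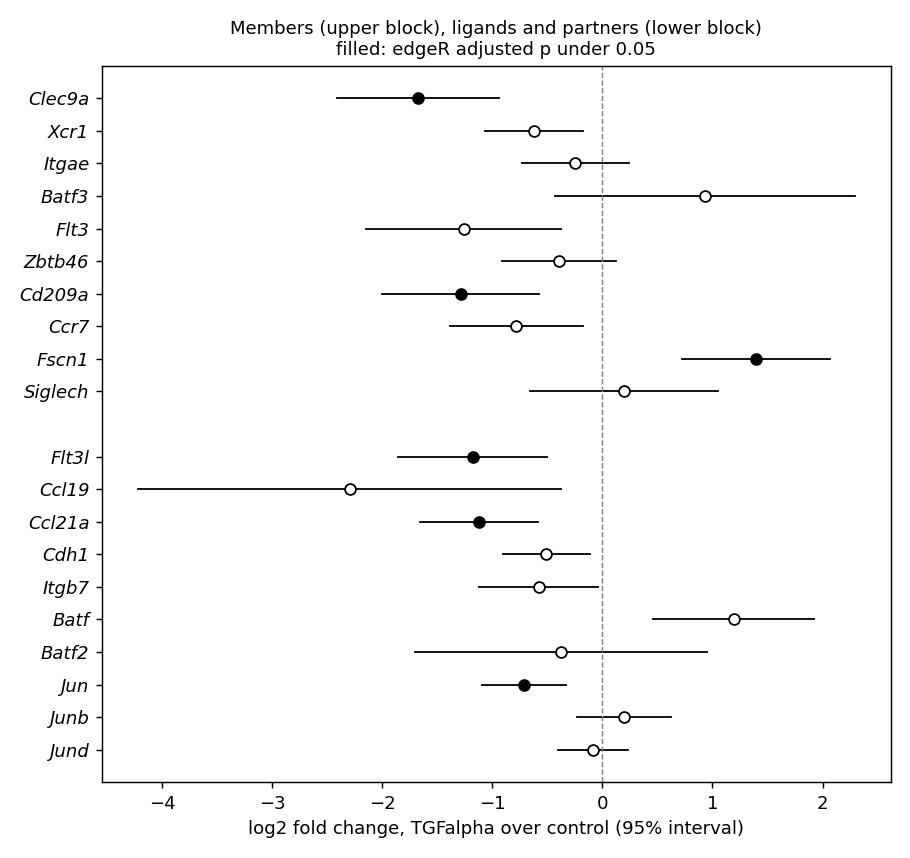
Log2 fold change (TGFalpha over control) with its 95% interval from edgeR for the 10 members, and below them for 10 genes of their ligands and partners. Filled points passed an adjusted p of 0.05: Clec9a (-1.67), Cd209a (-1.29) and Fscn1 (1.39) among the members, and Flt3l (-1.18), Ccl21a (-1.12) and Jun (-0.71) among the partners.

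Cd209a encodes a C-type lectin of cDC2 and monocyte-derived dendritic cells, the mouse relative of human DC-SIGN, and lies on chromosome 8 from 3743395 to 3748984. Its level was 3.57, 4.24 and 7.21 CPM in TGFalpha lungs and 13.9, 13.02 and 9.73 CPM in control lungs. The groups did not overlap, with TGFalpha replicate 3 and control replicate 3 closest to each other. Cd209a averaged 5.004 ± 1.94 CPM in TGFalpha lungs and 12.2 ± 2.20 CPM in control lungs (SD, n = 3 each), a log2 fold change of -1.29 ± 0.31 (95% interval -1.999 to -0.58; edgeR adjusted p = 0.0433). Only the fit without TGFalpha replicate 3 kept the call among those with 1 library left out (adjusted p = 0.0208). In the other 5 the adjusted p lay between 0.0845 and 0.138. Without both muscle-bearing libraries the log2 fold change was -0.99 (adjusted p = 0.169).

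The Cd209 genes lie side by side on chromosome 8 and resemble each other, so reads may be split between them. Cd209f also fell, at 3.15, 1.97 and 1.84 CPM in TGFalpha lungs and 5.66, 7.56 and 7.49 CPM in control lungs (log2 fold change -1.57 ± 0.32, edgeR adjusted p = 0.0258), and that call was lost without TGFalpha replicate 2 or 3 or control replicate 2 or 3 (0.0710, 0.0592, 0.101 and 0.120). Cd209g had 2.76, 1.23 and 0.964 CPM in TGFalpha lungs and 2.85, 5.96 and 4.43 CPM in control lungs, which did not pass (edgeR adjusted p = 0.108). Cd209b, Cd209c, Cd209d and Cd209e overlapped between groups, with adjusted p of 0.398 or more.

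Fscn1 moved the other way from every other member past the test. It encodes fascin, which bundles actin in the dendrites of mature dendritic cells and in other motile cells, and lies on chromosome 5 from 142960355 to 142973189. Fscn1 stood at 73.5, 75.003 and 39.2 CPM in TGFalpha lungs and at 28.1, 26.7 and 16.6 CPM in control lungs. Replicate 3 was the lowest of each group, and the lowest TGFalpha library was above the highest control library. The mean was 62.6 ± 20.3 CPM in TGFalpha lungs and 23.8 ± 6.28 CPM in control lungs (SD, n = 3 each), with a log2 fold change of 1.39 ± 0.29 (95% interval 0.72 to 2.07; edgeR adjusted p = 0.0298), or 2.63-fold higher in TGFalpha lungs. Without TGFalpha replicate 1 or 2 or control replicate 2 or 3 the adjusted p was 0.101, 0.0783, 0.0999 and 0.123, and without both muscle-bearing libraries it was 0.0828. The log2 fold change was 1.39 without both of these libraries and 1.19 to 1.63 with 1 library left out. Fscn2 and Fscn3, the relatives of the retina and testis, had at most 0.183 CPM in any library.

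Fscn1 is not particular to dendritic cells, and some markers of mesenchymal cells moved with it. Of 9 genes of fibroblasts and smooth muscle 6 rose, among them Col1a1, Col1a2 and Col3a1. The other 3 did not pass, and 1 of the 9 had a negative log2 fold change. The 9 summed to 6908, 8983 and 5571 CPM in TGFalpha lungs and 1674, 1839 and 1654 CPM in control lungs. Col3a1 alone held 3374, 5003 and 3069 CPM of the sum in TGFalpha lungs and 696, 726 and 578 CPM in control lungs. As with Fscn1, TGFalpha replicate 2 was the highest and TGFalpha replicate 3 the lowest of the TGFalpha libraries in this sum. Among control libraries the sum was highest in replicate 2, while Fscn1 was highest in replicate 1. The part of these cells in the Fscn1 level was not tested.

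Ccr7, the chemokine receptor by which mature dendritic cells, naive T cells and B cells reach lymph nodes, did not follow Fscn1. It stood at 6.80, 11.2 and 6.66 CPM in TGFalpha lungs and at 11.8, 13.8 and 16.8 CPM in control lungs. TGFalpha replicate 2 came close to control replicate 1 without reaching it. The log2 fold change of -0.78 ± 0.26 (95% interval -1.39 to -0.18) did not pass (edgeR adjusted p = 0.103). Among the T and NK cell markers 13 of 14 had a negative log2 fold change, with sums of 132, 195 and 194 CPM in TGFalpha lungs and 191, 276 and 241 CPM in control lungs, and the B cell markers summed to 60.7, 138 and 99.2 CPM in TGFalpha lungs against 127, 121 and 108 CPM in control lungs. The part of these lymphocytes in the Ccr7 values was not tested.

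Both CCR7 ligand genes had less signal in each TGFalpha library than in any control library. Ccl21a fell, at 20.6, 15.8 and 13.03 CPM in TGFalpha lungs and 29.6, 45.4 and 32.6 CPM in control lungs (log2 fold change -1.12 ± 0.23, edgeR adjusted p = 0.0283), a call lost without TGFalpha replicate 2 or 3 or control replicate 2 or 3 (0.0759, 0.0626, 0.1004 and 0.0959). Near-identical copies make this value uncertain, since the rows of Ccl21b, Ccl21c and Ccl21d held the same counts as each other in every library, at 1136, 1104 and 744 in TGFalpha lungs and 2380, 2212 and 2124 in control lungs. Ccl19 had 0.213, 2.51 and 0.251 CPM in TGFalpha lungs and 5.62, 5.27 and 3.74 CPM in control lungs. TGFalpha replicate 2 held more Ccl19 than the other libraries of its group and still lay below every control library, and the log2 fold change was -2.30 ± 0.84 (edgeR adjusted p = 0.125).

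Siglech, a lectin receptor used to mark plasmacytoid dendritic cells in the mouse, spread widely within the TGFalpha group. Its level was 4.85, 13.8 and 8.17 CPM in TGFalpha lungs and 6.82, 9.67 and 6.89 CPM in control lungs. TGFalpha replicates 1 and 2 were the lowest and the highest of all 6 libraries. The log2 fold change was 0.20 ± 0.37 (95% interval -0.66 to 1.05; edgeR adjusted p = 0.768), and it was -0.26 without TGFalpha replicate 2. None of 12 further plasmacytoid genes passed by edgeR, and none was called by DESeq2 or limma-voom. By edgeR 0 of the 12 had an unadjusted p under 0.05, and by each of the other tools 1 did. The smallest adjusted p was that of Tlr7, a receptor for single-stranded RNA, at 22.2, 55.2 and 25.4 CPM in TGFalpha lungs and 72.9, 52.4 and 49.7 CPM in control lungs (edgeR adjusted p = 0.192).

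**Figure D3:**
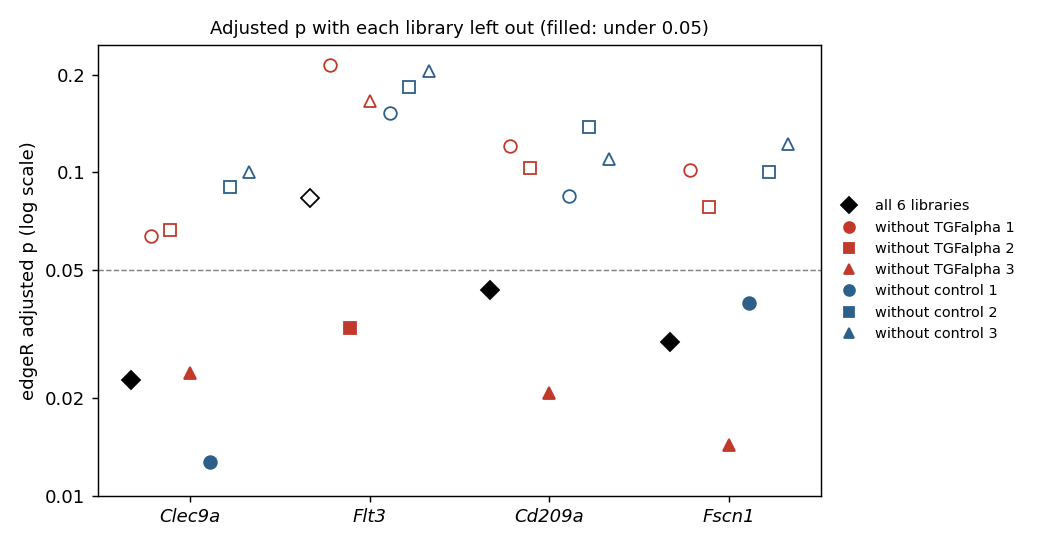
Adjusted p from edgeR (log axis) of Clec9a, Flt3, Cd209a and Fscn1 with all 6 libraries (diamond) and with each library left out in turn, filled where under the dashed line at 0.05. Clec9a and Fscn1 stayed under 0.05 without TGFalpha replicate 3 or control replicate 1, Cd209a only without TGFalpha replicate 3, and Flt3 passed only without TGFalpha replicate 2.

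The 250 bases before the start of the 3 genes that passed are shown because they differ in CpG content, which was seen after the fold changes were known. Sequences are from RefSeq on GRCm38.p6, 5′ to 3′ in the direction of the gene, with each CpG in capitals. They lie at chr6:129408612-129408861 (plus strand) for Clec9a, chr8:3748985-3749234 (minus strand) for Cd209a and chr5:142960105-142960354 (plus strand) for Fscn1.
Clec9a: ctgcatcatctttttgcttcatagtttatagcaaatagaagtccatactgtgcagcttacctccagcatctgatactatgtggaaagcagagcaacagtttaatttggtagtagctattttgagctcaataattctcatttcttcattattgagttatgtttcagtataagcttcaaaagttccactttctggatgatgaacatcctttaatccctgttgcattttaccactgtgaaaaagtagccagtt
Cd209a: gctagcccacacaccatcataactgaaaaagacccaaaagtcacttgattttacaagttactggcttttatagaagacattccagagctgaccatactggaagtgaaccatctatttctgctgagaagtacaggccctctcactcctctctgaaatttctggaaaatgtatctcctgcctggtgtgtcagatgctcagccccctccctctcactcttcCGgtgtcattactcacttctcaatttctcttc
Fscn1: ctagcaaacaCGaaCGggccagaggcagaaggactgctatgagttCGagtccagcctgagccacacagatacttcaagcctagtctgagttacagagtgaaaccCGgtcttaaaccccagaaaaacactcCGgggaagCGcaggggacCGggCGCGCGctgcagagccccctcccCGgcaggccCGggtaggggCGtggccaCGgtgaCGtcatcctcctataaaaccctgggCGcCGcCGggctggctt
Clec9a had no CpG in this window and Cd209a had 1, while Fscn1 had 18. Of 32851 mouse promoter windows of this length, 7.87% held no CpG, 18.8% held at most 1 and 21.7% held 18 or more. Among the members that did not pass, Siglech had 2, Xcr1 had 5, Flt3 had 13 and Batf3 had 27. RefSeq windows matched 8 of the 10 members, and that of Zbtb46 was not used because it lies wholly inside the gene. The end of the Siglech window also lies inside its gene.

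Over 44 further genes of dendritic cell types in 4 lists, 4 fell and 1 rose, beside 3.29% lower and 5.03% higher among all genes tested. In either direction together, the share called was near the 8.33% of all genes tested. The share lower was above that of all genes and the share higher below it, on few called genes. The median log2 fold change was -0.34, with 70.5% of genes below 0 against 49.1% of all genes tested. That median was -0.54 without TGFalpha replicate 2, -0.23 without TGFalpha replicate 3 and -0.15 without both muscle-bearing libraries. Of 10 further cDC1 genes 2 fell. Wdfy4, needed for cross-presentation by cDC1, had 34.9, 49.0 and 35.1 CPM in TGFalpha lungs and 74.7, 68.1 and 59.3 CPM in control lungs (log2 fold change -0.76 ± 0.18, edgeR adjusted p = 0.0419). Tlr3, a receptor for double-stranded RNA that cDC1 share with epithelium and other cells, had 37.2, 54.4 and 51.1 CPM in TGFalpha lungs against 68.9, 89.5 and 80.8 CPM in control lungs (-0.75 ± 0.19, edgeR adjusted p = 0.0471). Neither gene's groups overlapped. With 1 library left out, the Wdfy4 call held only without TGFalpha replicate 2 (adjusted p = 0.0367, the others 0.0879 to 0.130). The Tlr3 call was lost without any 1 of the 6 libraries (0.0532 to 0.160). Without both muscle-bearing libraries the adjusted p was 0.174 for Wdfy4 and 0.0804 for Tlr3.

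Of 8 further cDC2 genes 1 fell and 1 rose. Klf4, a transcription factor of cDC2 that epithelium and endothelium also express, fell to 39.5, 28.8 and 52.6 CPM in TGFalpha lungs, against 110, 145 and 105 CPM in control lungs (-1.57 ± 0.24 on the log2 scale, edgeR adjusted p = 0.00981). The call was lost only without control replicate 2 (0.0506). Clec4a2, which encodes the inhibitory lectin receptor DCIR of dendritic cells and macrophages, rose, at 13.9, 16.6 and 11.8 CPM in TGFalpha lungs and 8.19, 8.48 and 7.44 CPM in control lungs (0.81 ± 0.20, edgeR adjusted p = 0.0469). That call was lost with any 1 library left out (adjusted p between 0.0528 and 0.178) and without both muscle-bearing libraries (0.141). In the macrophage and monocyte list C1qa, Fcgr1 and Cx3cr1 rose, and the other 9 genes did not pass. Of the 12 genes 6 had a positive and 6 a negative log2 fold change, with a median of 0.12. The 12 genes summed to 842, 1218 and 781 CPM in TGFalpha lungs and 1035, 764 and 753 CPM in control lungs.

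Of 14 further genes of mature and migratory cells 1 fell. Ccl22, a chemokine of mature dendritic cells that attracts CCR4-bearing T cells, had 3.02, 9.79 and 4.27 CPM in TGFalpha lungs and 21.4, 20.4 and 14.8 CPM in control lungs. The log2 fold change of -1.73 ± 0.41 (edgeR adjusted p = 0.0421) kept its call only without TGFalpha replicate 2 (0.0134) when 1 library was left out, and the others gave 0.0693 to 0.136. Without both muscle-bearing libraries it was 0.118. Cacnb3, a calcium channel subunit gene, went the way of Fscn1 without passing, at 17.6, 15.6 and 12.4 CPM in TGFalpha lungs and 10.04, 6.37 and 7.81 CPM in control lungs (0.91 ± 0.24, edgeR adjusted p = 0.0526). Cd274, the gene of the checkpoint ligand PD-L1, had 41.0, 104 and 51.0 CPM in TGFalpha lungs and 124, 90.0 and 131 CPM in control lungs (edgeR adjusted p = 0.164). TGFalpha replicate 2 was the highest TGFalpha library for Ccl22 and Cd274 and reached the control range for Cd274.

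**Figure D4:**
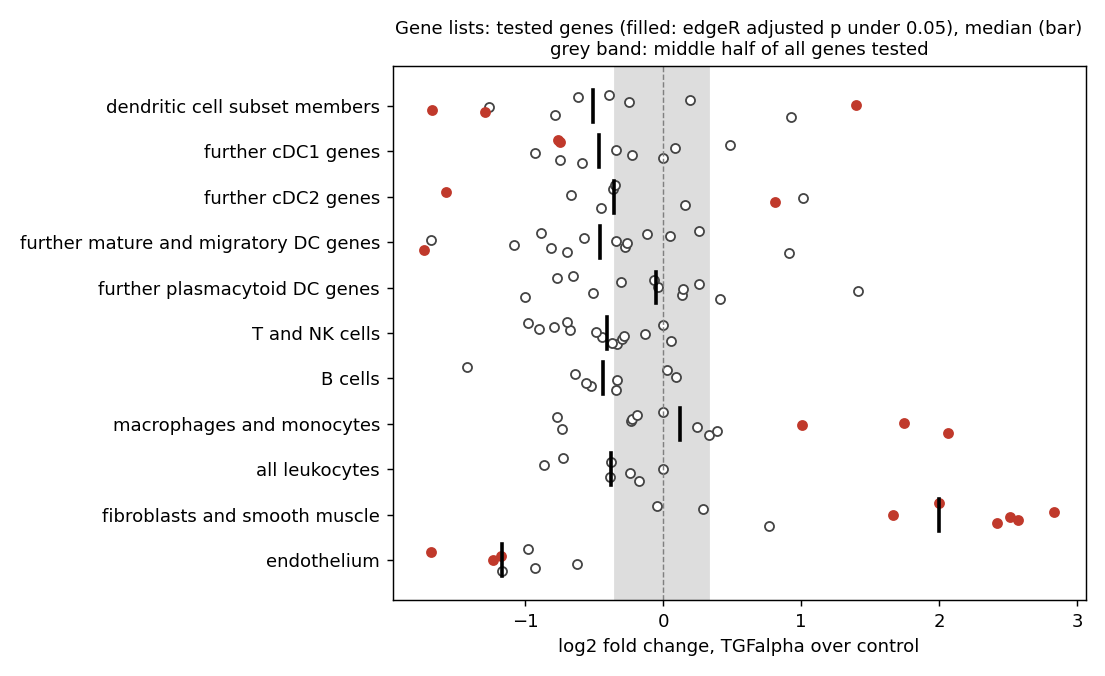
Log2 fold change (TGFalpha over control) of each tested gene in the members, 4 further dendritic cell lists and 6 lists of other lung cells, with filled points for edgeR adjusted p under 0.05, a bar at each list's median and a grey band for the interquartile range of all genes tested (-0.35 to 0.34). The member median lay at -0.51 and the plasmacytoid median at -0.05, while fibroblast genes lay at 2.002 and endothelial genes at -1.17.

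Within the TGFalpha group, replicate 2 held the highest level of 7 of the 10 members, and replicate 3 held that of the other 3, Clec9a, Cd209a and Batf3. Within that group replicate 2 also had the most transcript of Ptprc, the pan-leukocyte gene of CD45, with 88.4, 201 and 134 CPM in TGFalpha lungs and 245, 207 and 248 CPM in control lungs. Ptprc was lower in each TGFalpha library than in any control library but did not pass (log2 fold change -0.73 ± 0.27, edgeR adjusted p = 0.134). Over 7 pan-leukocyte genes the sums were 501, 774 and 540 CPM in TGFalpha lungs and 910, 772 and 767 CPM in control lungs, so that TGFalpha replicate 2 lay within the control range.

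Each member was then divided by Ptprc in the same library. Ptprc had a log2 fold change of -0.73, against a median of -0.38 over the 7 pan-leukocyte genes. Ratios to another of these genes were not computed. Ccr7 came to 7.69, 5.58 and 4.96% of the Ptprc CPM in TGFalpha lungs and 4.84, 6.66 and 6.78% in control lungs, and Xcr1 to 11.4, 6.604 and 7.61% in TGFalpha lungs against 7.36, 9.09 and 5.92% in control lungs. For both of these genes the groups overlapped in this ratio. Flt3 was lower relative to Ptprc in every TGFalpha library, at 2.11, 2.15 and 1.34% in TGFalpha lungs against 2.89, 2.92 and 2.43% in control lungs. Siglech was higher in every TGFalpha library, at 5.48, 6.87 and 6.08% in TGFalpha lungs against 2.79, 4.67 and 2.78% in control lungs, as were Fscn1, at 83.1, 37.4 and 29.2% in TGFalpha lungs against 11.5, 12.9 and 6.69% in control lungs, and Batf3, at 2.02, 0.636 and 1.43% in TGFalpha lungs against 0.525, 0.133 and 0.424% in control lungs. Clec9a was at 11.9, 8.53 and 16.7% in TGFalpha lungs and 14.4, 32.8 and 22.7% in control lungs, which overlapped. For the 4 ratios that separated the groups, the exact permutation p over libraries (2-sided) could only be 0.1, the smallest for 3 against 3 libraries. That p follows from the separation itself and adds no evidence to it. Since Ptprc was lower in each TGFalpha library, the division moves every gene upwards, and the ratio separated the groups for 44.7% of all genes tested (43.9% higher and 0.858% lower in TGFalpha lungs). The share of members that were higher, 3 of 10, was not above that of all genes.

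**Figure D5:**
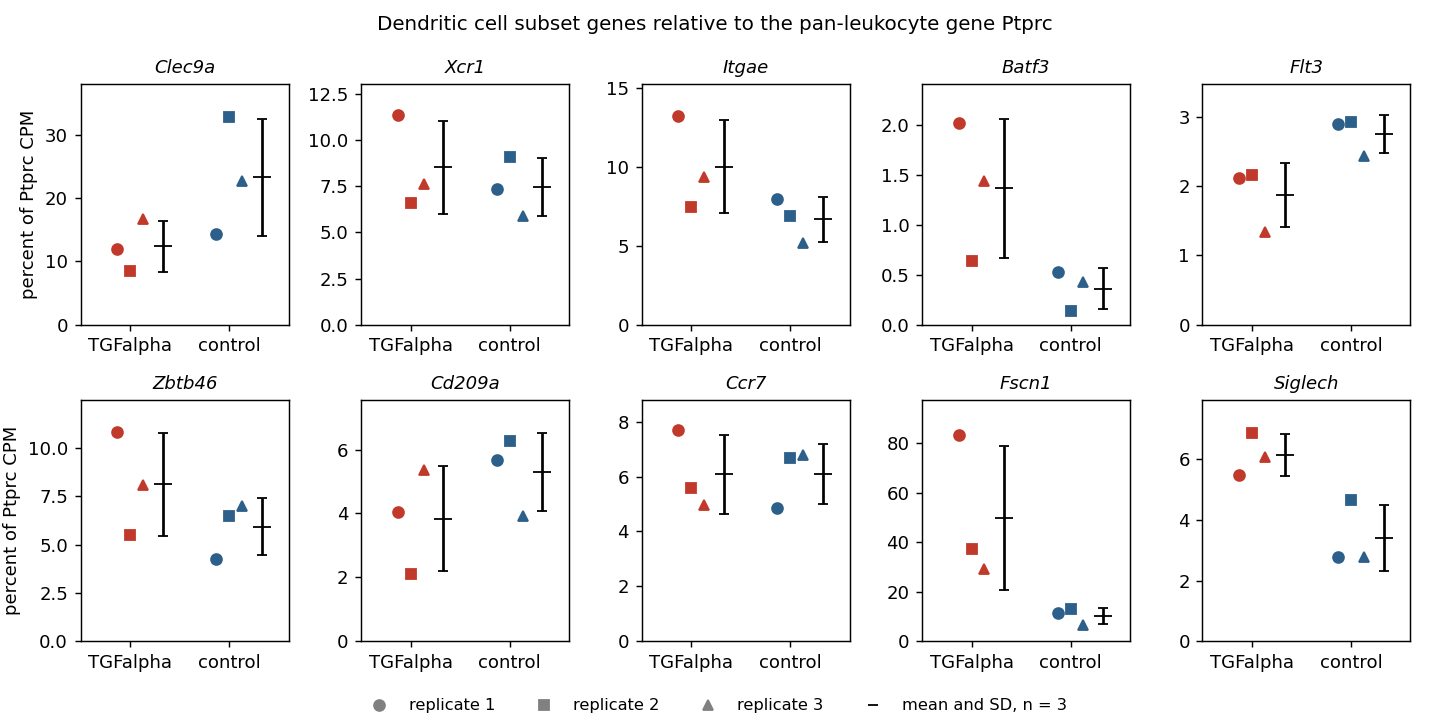
Each member's CPM as a percent of the Ptprc CPM of the same library (circle, square and triangle for replicates 1, 2 and 3; bar and whiskers for mean and SD, n = 3), with TGFalpha lungs left of control lungs. Siglech, Fscn1 and Batf3 lay higher and Flt3 lower in every TGFalpha library, and the groups overlapped for the other 6 members, beside 43.9% of all genes tested that lay higher and 0.858% that lay lower in this ratio.

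To compare members with each other, levels were divided by the length of their exons (CPM per kilobase, union of exons in the basic GENCODE set). In TGFalpha lungs Fscn1 led with 23.4 ± 7.58 CPM per kilobase, above the range of Clec9a (5.06 ± 1.8), and Flt3 was the lowest with 0.728 ± 0.392 (SD, n = 3). From Clec9a down through Ccr7, Itgae, Cd209a, Siglech, Xcr1, Batf3 and Zbtb46 each neighbour overlapped the next. In control lungs Clec9a led with 16.1 ± 5.03 CPM per kilobase, just above the range of Fscn1 (8.89 ± 2.35). Cd209a at 8.24 ± 1.48 and Ccr7 at 7.15 ± 1.26 overlapped Fscn1, followed by Itgae and Xcr1, which overlapped each other, and then by Siglech, Zbtb46 and Flt3, whose ranges overlapped from neighbour to neighbour. Batf3 was the lowest in control lungs, at 1.09 ± 0.660 CPM per kilobase. These ranks depend on the exon set and may change with another. For Flt3 the basic set gives 3.657 kilobases and the full GENCODE set 6176 bases.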

How the data were processed

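Per the labels' protocols, total RNA of mouse lung was purified with RNeasy columns and sequenced as Illumina libraries. Values are raw counts per gene, as the authors deposited them, for 6 libraries, 3 per group, without normalization or pooling. The submitters' processing notes name bcl2fastq, CASAVA 1.8, TopHat, DESeq and build mm10. The sources used here do not give the counting tool, strand setting or annotation, so overlapping genes cannot be separated.

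Of 24061 gene identifiers, 23976 were named through a RefSeq table on GRCm38.p6, and 85 unnamed ones (1.73 to 3.80% of counts) were kept in totals and tests. Groups came from sample titles. Counts were tested with edgeR 4.0.16 (quasi-likelihood F test, TMM scaling, filter by expression, Benjamini-Hochberg over 16089 genes, threshold 0.05) in R 4.3.3, after checks on simulated data. SEs and 95% intervals come from the fitted coefficient and its F statistic. CPM use TMM-scaled library sizes. Counts differed between libraries of a group far beyond sampling noise (chi-square per degree of freedom 46.6 or more), so none was a duplicate.

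The members and lists were chosen with earlier results of these data known. All members and any tested ligand or partner could be named, and from each other list the 3 genes with the smallest adjusted p, any called gene against the list's direction, and Ptprc. The lists of neutrophils, airway and alveolar epithelium, and thymus and lymph node tissue served as background. Of the first, 0 of 6 tested genes passed by edgeR, DESeq2 or limma-voom (unadjusted 0 by edgeR, 1 by each of the others). Of the epithelial list 2 of 8 fell. Of the last 1 of 5 rose and 1 fell. No skeletal muscle gene of 7 passed by edgeR or limma-voom, with 0 at an unadjusted p under 0.05, and DESeq2 gave none an adjusted p. Alternatives were DESeq2 1.42.0, limma-voom (limma 3.58.1), scaling by DESeq2 size factors or by library totals, a filter of 1 CPM in 3 libraries or none, a replicate block, and removal of the 20 most abundant genes or of libraries.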

Additional observations from a re-analysis of the deposited data

How the results depend on the processing

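All 10 members kept their direction under the 15 alternatives, except Itgae (log2 fold change 0.024 without control replicate 1 and TGFalpha replicate 1 together) and Siglech (-0.26 without TGFalpha replicate 2, with a range of -0.26 to 0.50 over single libraries left out). Scaling, filters, the tool and the removal of the 20 most abundant genes kept the 3 called members, and Flt3 was added by DESeq2 and limma-voom (3 lower in each). With 1 library left out, 0 to 1 members were called higher and 0 to 2 lower by edgeR, where 1 was higher and 4 to 6 were lower at an unadjusted p under 0.05. Without control replicate 1 and TGFalpha replicate 1 together, 0 were called higher (1 at an unadjusted p under 0.05) and 1 lower, and of the further dendritic cell genes 0 higher (3 unadjusted) and 1 lower. Those further genes numbered 0 to 1 higher and 0 to 5 lower with 1 library left out, 0 higher with no filter (3 unadjusted) or by limma-voom (4 unadjusted), and 2 higher by DESeq2. Over all genes, 810 were higher and 530 lower by edgeR, 1279 and 1212 by DESeq2, 307 and 166 without both replicates 1, and 204 to 606 and 34 to 482 with 1 library left out. The cause of these changes was not tested. Same-numbered libraries did not deviate together in all pairs (correlations 0.44, -0.10 and 0.27), so the numbers were not read as pairs. With the replicate block 802 genes were higher and 668 lower, 1 member was called higher and 2 lower, and 1 further gene higher and 4 lower. The fits rest on 6 libraries, and counts were few for Batf3 and Flt3. A member that did not pass may therefore still differ between the groups, by any amount within the interval given for it.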

Other observations

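The cytokine genes that support dendritic cells other than Flt3l overlapped between the groups. Csf2, which encodes GM-CSF, stood at 4.42, 5.14 and 3.60 CPM in TGFalpha lungs and 7.71, 3.99 and 3.20 CPM in control lungs (edgeR adjusted p = 0.789). Its receptor chain gene Csf2rb had 70.3, 161 and 72.1 CPM in TGFalpha lungs and 193, 118 and 83.3 CPM in control lungs (edgeR adjusted p = 0.567), with TGFalpha replicate 2 and control replicate 1 the highest of their groups. Csf1, the macrophage growth factor gene, had 35.6, 59.0 and 34.8 CPM in TGFalpha lungs and 70.2, 48.2 and 59.3 CPM in control lungs (edgeR adjusted p = 0.262).

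Relatives of Siglech separated the groups in both directions without passing. Siglecg, the Siglec of B cells and some dendritic cells, had 1.70, 3.41 and 0.964 CPM in TGFalpha lungs and 5.14, 4.86 and 5.02 CPM in control lungs (log2 fold change -1.30 ± 0.45, edgeR adjusted p = 0.110). Siglece, an inhibitory receptor of neutrophils and macrophages, had 5.14, 7.40 and 6.91 CPM in TGFalpha lungs and 3.49, 4.03 and 3.61 CPM in control lungs (0.81 ± 0.26, edgeR adjusted p = 0.0947). Siglecf, the receptor of alveolar macrophages and eosinophils, overlapped, at 13.5, 22.9 and 13.4 CPM in TGFalpha lungs against 13.4, 19.2 and 17.3 CPM in control lungs (edgeR adjusted p = 0.998).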
